A study of Mus musculus with 16 samples.

Results

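The 10 genes described here are the NRF2 and glutathione synthesis genes Nfe2l2, Keap1, Gclc, Gclm, Gss, Gsr, Nqo1, Txnrd1, Srxn1 and G6pdx, taken by symbol from a table of 39057 genes, and all 10 passed the filter on low counts together with 12481 genes in all. They were chosen from the pathway with the APOE4 against APOE3 comparison of these libraries already known, so their values in that comparison, threshold calls included, are given as a description that supports nothing. RNA was sequenced from 16 primary cultures of cortical brain endothelial cells, each from a different mouse of 21 to 28 days. Of these, 8 cultures were APOE3 and 8 were APOE4, both lines being targeted replacement mice, and each genotype had 4 male and 4 female animals. In both lines the human APOE isoform is driven by the mouse promoter in every cell type that uses it, so the genotype was carried by the whole animal and not by its endothelium alone. All 16 cultures were exposed to 8 µg/ml puromycin, which selects for endothelial cells, were grown to confluence and otherwise left untreated.

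NRF2, encoded by Nfe2l2, is the transcription factor that raises antioxidant genes through the antioxidant response element, a short DNA motif. KEAP1 holds it in the cytoplasm and passes it to degradation until oxidants or electrophiles modify its cysteines, so NRF2 activity is set largely at the protein level. Among its classic targets are the genes that make glutathione, the main low molecular weight thiol of the cell, and those that keep it and thioredoxin reduced with NADPH. In the brain endothelium these systems face both the blood and the oxidants of a cell type rich in mitochondria.

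Total counts per library ran from 12717847 to 18624417. The members had between 93 counts, for Nqo1 in an APOE3 culture, and 4086 counts, for Nfe2l2 in an APOE4 culture, so that no member was near the floor of 3 counts. Human APOE was counted in every library, with 15504 to 22318 counts in APOE3 and 7672 to 14722 in APOE4 cultures, and mouse Apoe had 128 to 290. The endothelial label held: the 15 brain endothelial markers summed to between 15760 and 17205 counts per 1000000 library counts (CPM), with Cldn5 at 1342 ± 56.4 (SD, n = 8) in APOE3 and 1279 ± 60.6 (SD, n = 8) in APOE4 cultures. Mfsd2a, the lowest on this list, had only 3.46 ± 0.486 (SD, n = 8) CPM in APOE3 and 3.36 ± 0.924 (SD, n = 8) CPM in APOE4 cultures. The 10 pericyte and smooth muscle markers summed to 188 to 354 CPM in APOE3 and 222 to 339 in APOE4, and the 5 fibroblast markers to 12.5 to 60.5 and 8.49 to 77.1 CPM, with Lum at or under the floor. Astrocyte and oligodendrocyte markers summed to at most 4.29 CPM, with Aqp4, Mog, Mag and Olig2 at or under the floor, microglia and macrophage markers to at most 0.792 CPM, with Cx3cr1, P2ry12 and Itgam at or under it, and neuron markers to at most 14.3 CPM, with Snap25 at or under it. Cell cycle genes differed between the genotypes. All 25 on the list had a log2 fold change above 0 in APOE4 cultures. Of these, 24 passed an adjusted p of 0.05 by edgeR's quasi-likelihood test, where 6.71% of all genes tested passed as higher. The list's median log2 fold change was 0.67, and the summed level of its genes was 1021 to 2177 CPM in APOE3 and 1778 to 3104 CPM in APOE4. The mean log2 CPM of these genes, used below as a cell cycle score, was 5.45 ± 0.37 (SD, n = 8) in APOE3 and 6.09 ± 0.28 (SD, n = 8) in APOE4 cultures.

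The antioxidant response element is shown in the promoters of the factor itself and of targets that the results compare with Gclc. RefSeq windows on GRCm38.p6, from 250 bases before to 50 bases after a start site, were matched for 8 of the 10 members. The promoter set used held no window for Gclc or Gsr, so their promoters were not searched. The core TGACNNNGC and the variant TGAGNNNGC were searched on both strands. The core stood in 12.4%, the variant in 17.6% and either in 27.8% of 32851 promoters of this length. Of the members' 10 windows, 5 held at least 1 match, and these belong to 5 members: Nfe2l2, Gclm, Txnrd1, Srxn1 and G6pdx. Txnrd1 had more than 1 window, and only that at chr10:82858956-82859255 held a match. Sequence farther from the start sites was not searched, so a member without a match here may have one outside its window. Below, each window is written 5′ to 3′ along the gene's strand, the capitals mark the matches, and a match on the opposite strand appears as its reverse complement. With the start site as 1 and no position 0, the match in Nfe2l2 begins at -240, that in Gclm at -134 and those in Srxn1 at -158, -45 and 29.
Nfe2l2, chr2:75704614-75704913, minus strand: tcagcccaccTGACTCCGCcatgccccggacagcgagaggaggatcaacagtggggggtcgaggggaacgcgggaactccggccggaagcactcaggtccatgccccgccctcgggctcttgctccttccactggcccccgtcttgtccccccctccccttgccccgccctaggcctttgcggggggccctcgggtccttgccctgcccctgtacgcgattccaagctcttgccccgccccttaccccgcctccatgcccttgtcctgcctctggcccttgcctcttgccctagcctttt
Gclm, chr3:122245307-122245606, plus strand: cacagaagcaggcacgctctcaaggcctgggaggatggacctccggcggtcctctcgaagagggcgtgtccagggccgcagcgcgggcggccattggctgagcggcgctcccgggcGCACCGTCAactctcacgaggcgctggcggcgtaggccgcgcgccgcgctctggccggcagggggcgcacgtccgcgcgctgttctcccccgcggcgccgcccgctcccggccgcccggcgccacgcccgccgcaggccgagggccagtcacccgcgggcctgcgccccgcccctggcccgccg
Srxn1, chr2:152105274-152105573, plus strand: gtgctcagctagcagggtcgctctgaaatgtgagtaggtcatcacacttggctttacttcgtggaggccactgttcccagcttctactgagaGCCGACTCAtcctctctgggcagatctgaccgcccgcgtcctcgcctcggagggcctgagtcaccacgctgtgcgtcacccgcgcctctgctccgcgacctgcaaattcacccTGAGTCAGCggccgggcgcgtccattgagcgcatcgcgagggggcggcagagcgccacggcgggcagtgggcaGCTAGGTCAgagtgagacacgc
A match is a description of these letters and not a site shown to be bound.

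Levels were first ordered among the members, as CPM per kilobase of exon over all 16 libraries. Nfe2l2 stood highest at 57.2 ± 2.06 (SD, n = 16), and its lowest library, at 54.2, lay above every library of each other member. The following 7 genes lay close together. G6pdx was at 23.4 ± 1.18, above Txnrd1 at 21.4 ± 1.20 in 16 of 16 libraries although their ranges overlapped. Txnrd1 and Srxn1, the latter at 21.0 ± 1.44, did not differ beyond their spread, with Txnrd1 the higher in 6 of 8 APOE3 and 3 of 8 APOE4 libraries. Gclm at 18.8 ± 1.09, Gclc at 18.3 ± 1.94 and Keap1 at 18.3 ± 0.768 followed, but the place of Gclc depended on genotype. In APOE3 libraries, where Gclc was at 19.9 ± 1.05 (SD, n = 8), it was above Keap1 in 8 of 8 and below Gclm in 2 of 8. In APOE4 libraries, where it was at 16.7 ± 0.965 (SD, n = 8), it was above Keap1 in 1 of 8 and below Gclm in 7 of 8. Gsr stood at 17.1 ± 1.09. Nqo1, at 5.58 ± 1.09, and Gss, at 2.25 ± 0.188, lay apart from all others and from each other. With the longest annotated transcript as the length, Nfe2l2 stayed highest and Nqo1 and Gss lowest, while Txnrd1 rose to 41.9 and Keap1 to 23.7 CPM per kilobase, so the order within the middle group depends on the length used.

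Between genotypes, the catalytic subunit gene of glutamate cysteine ligase stood apart from the other members. Gclc was lower in APOE4 cultures by a log2 fold change of -0.26 ± 0.041 (SE), 0.837 of the APOE3 level, and in edgeR's quasi-likelihood fit over all genes it was the only one of the 10 members past an adjusted p of 0.05. As a description, that is 1 lower and 0 higher of 10, where 12.8% of all 12481 genes tested passed, 6.09% lower and 6.71% higher. Nothing is read from this count, since the choice of members used the same contrast. Log2 fold changes of the other 9 lay between -0.11 for Gss and 0.048 for Srxn1, and the median of the 10 was 0.00052, beside -0.00022 for all genes tested.

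**Figure D1:**
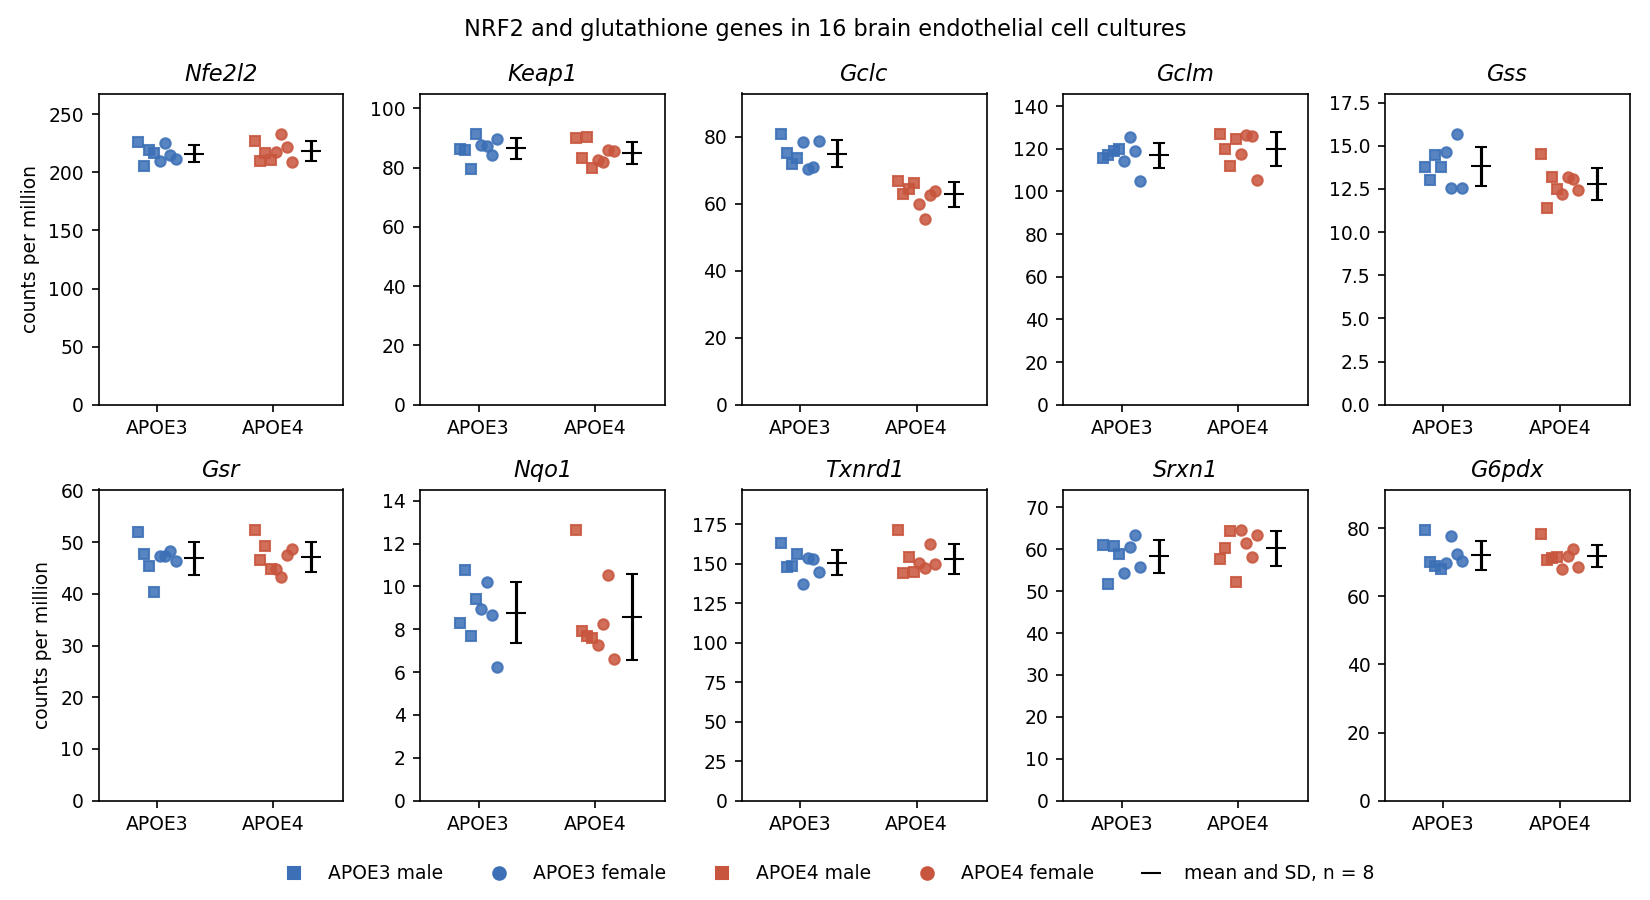
CPM of each member (vertical axes, from 0) in the 16 cultures by APOE genotype, with squares for males, circles for females and black bars for mean and SD of 8 cultures. Gclc is the panel in which the genotypes do not overlap, with 55.5 to 66.8 CPM in APOE4 against 70.3 to 80.8 CPM in APOE3.

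Gclc (ENSMUSG00000032350.9, chr9:77754535-77794485 on the plus strand of GRCm38, protein coding) encodes the subunit that joins glutamate to cysteine, the rate-limiting step of glutathione synthesis. In males, the 4 APOE3 cultures had 80.8, 75.1, 71.8 and 73.6 CPM and the 4 APOE4 cultures 66.8, 62.9, 64.3 and 66.2 CPM. In females, the APOE3 cultures had 78.4, 70.3, 70.9 and 78.7 CPM and the APOE4 cultures 60.0, 55.5, 62.6 and 63.7 CPM. All 8 APOE4 cultures were thus below the lowest APOE3 culture, and this held within each sex. Over the whole table, in 0.369% of the genes tested all APOE4 libraries were below, and in 0.256% all were above, the APOE3 libraries, and nothing is read from this either. The mean was 75.0 ± 3.95 CPM (SD, n = 8) in APOE3 and 62.7 ± 3.64 CPM (SD, n = 8) in APOE4 cultures, a difference larger than the spread within either genotype. The log2 fold change was -0.21 ± 0.056 (SE) in males and -0.30 ± 0.056 (SE) in females. In bulk RNA, fewer cells of a type and less RNA per cell cannot be told apart.

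Leaving out each of the 16 libraries in turn gave log2 fold changes of -0.27 to -0.23 for Gclc. The cell cycle score moved with the genotype beside it. With that score as a covariate the log2 fold change of Gclc was -0.21 ± 0.056 (SE) and no longer past the threshold, in a fit that called 0 of 12481 genes by edgeR and left 873 at an unadjusted p under 0.05. The part of cell cycle in the difference was not tested.

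Glutamate cysteine ligase is a heterodimer, and its modifier subunit, encoded by Gclm, did not share the difference. Gclm had 105 to 126 CPM with a median of 118 in APOE3, and 106 to 127 CPM with a median of 122 in APOE4 cultures, so the genotypes overlapped over most of their range. Its mean was 117 ± 5.93 CPM (SD, n = 8) in APOE3 and 120 ± 7.84 CPM (SD, n = 8) in APOE4 cultures, a log2 fold change of 0.035 ± 0.041 (SE). The ratio of Gclc to Gclm, each per kilobase of exon, was 1.07 ± 0.105 (SD, n = 8) in APOE3 and 0.878 ± 0.0825 (SD, n = 8) in APOE4 cultures. It ran from 0.935 to 1.25 in APOE3 and from 0.733 to 1.01 in APOE4, so a few cultures overlapped in the ratio although none did in Gclc itself. Gclm shares 3.92% of its 50-base stretches with other genes, among them a pseudogene in its own exons.

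**Figure D2:**
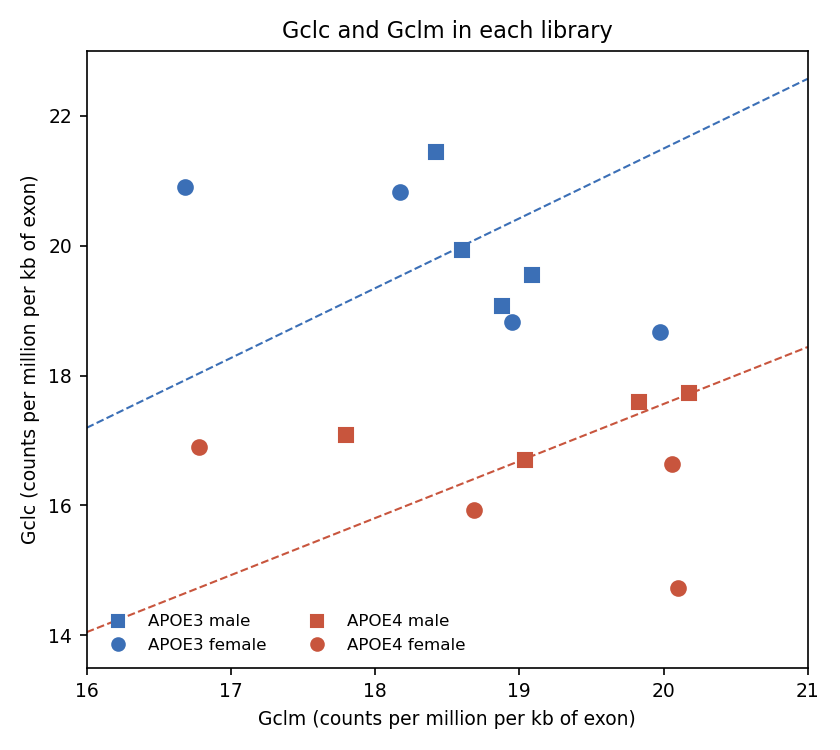
Gclc (vertical axis) against Gclm (horizontal axis) in each library, both in CPM per kilobase of exon and on axes that do not start at 0, with blue for APOE3, red for APOE4, squares for males and circles for females. Dashed lines are the mean Gclc to Gclm ratio of each genotype, 1.07 and 0.878, and the 8 APOE4 cultures lie below all APOE3 cultures on the vertical axis but not apart from them on the horizontal axis.

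The factor and its inhibitor had near equal transcript levels in both genotypes. Nfe2l2 (ENSMUSG00000015839.6, chr2:75675513-75704641, minus strand) had 206 to 226 CPM with a median of 216 in APOE3 and 209 to 233 CPM with a median of 217 in APOE4 cultures, a log2 fold change of 0.014 ± 0.031 (SE). Keap1 (chr9:21229730-21239361, minus strand) had 79.5 to 91.3 CPM with a median of 86.6 in APOE3 and 79.9 to 90.3 CPM with a median of 84.5 in APOE4 cultures, a log2 fold change of -0.026 ± 0.034 (SE). For each of these genes the libraries of the genotypes covered largely the same range. Both were also among the steadier transcripts between cultures of a genotype, with SDs of log2 CPM of 0.0528 and 0.0615 beside a median of 0.133 over all genes tested, although high counts by themselves lower this spread.

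The remaining enzymes of the glutathione cycle follow the ligase. Gss, glutathione synthetase, adds glycine to complete the tripeptide and had 12.5 to 15.7 CPM with a median of 13.8 in APOE3, and 11.4 to 14.5 CPM with a median of 12.8 in APOE4 cultures. Its log2 fold change was -0.11 ± 0.063 (SE), with 4 APOE4 cultures below the lowest APOE3 culture and the rest overlapping. Of the exon bases of Gss, 6.68% lie opposite exons of Acss2, and the strand setting of the counting is not given in the sources used here. Gsr, glutathione reductase, returns the disulfide to the reduced form with NADPH and had 40.4 to 52.0 CPM with a median of 47.3 in APOE3, and 43.3 to 52.3 CPM with a median of 47.1 in APOE4 cultures. The log2 fold change of Gsr was 0.0079 ± 0.048 (SE), and the genotypes overlapped.

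The NRF2 targets outside glutathione synthesis also overlapped between genotypes. Txnrd1, cytosolic thioredoxin reductase, had 137 to 163 CPM with a median of 151 in APOE3 and 144 to 171 CPM with a median of 150.3 in APOE4 cultures, a log2 fold change of 0.024 ± 0.040 (SE). Srxn1, sulfiredoxin, which repairs overoxidised peroxiredoxins, had 51.7 to 63.3 CPM with a median of 59.7 in APOE3 and 52.2 to 64.6 CPM with a median of 60.9 in APOE4 cultures, a log2 fold change of 0.048 ± 0.049 (SE). G6pdx, glucose 6-phosphate dehydrogenase, the entry to the NADPH-yielding pentose phosphate pathway, had 68.2 to 79.4 CPM with a median of 70.1 in APOE3 and 68.0 to 78.2 CPM with a median of 71.4 in APOE4 cultures, a log2 fold change of -0.0069 ± 0.039 (SE). These ranges were nearly the same in both genotypes. G6pdx shares 6.46% of its 50-base stretches with G6pd2, and 13.6% of its exon bases lie opposite exons of Ikbkg, so its counts are less certain than the others.

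Nqo1, a quinone reductase used widely as a marker of NRF2 activity, was the most variable member. It had 6.23 to 10.8 CPM with a median of 8.80 in APOE3 and 6.62 to 12.6 CPM with a median of 7.81 in APOE4 cultures, a log2 fold change of -0.040 ± 0.13 (SE). Its coefficient of variation was 16.4% in APOE3 and 23.4% in APOE4 cultures, where the other members had 3.38% to 8.00%. With 93 to 194 counts per library, Nqo1 was also the member with the fewest reads. After fitting the cell cycle score as a covariate its log2 fold change was -0.40 ± 0.15 (SE), not past the threshold, and the values of Nfe2l2, Gclm, Gsr and Txnrd1 turned from above to below 0, at -0.053, -0.089, -0.022 and -0.087.

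**Figure D3:**
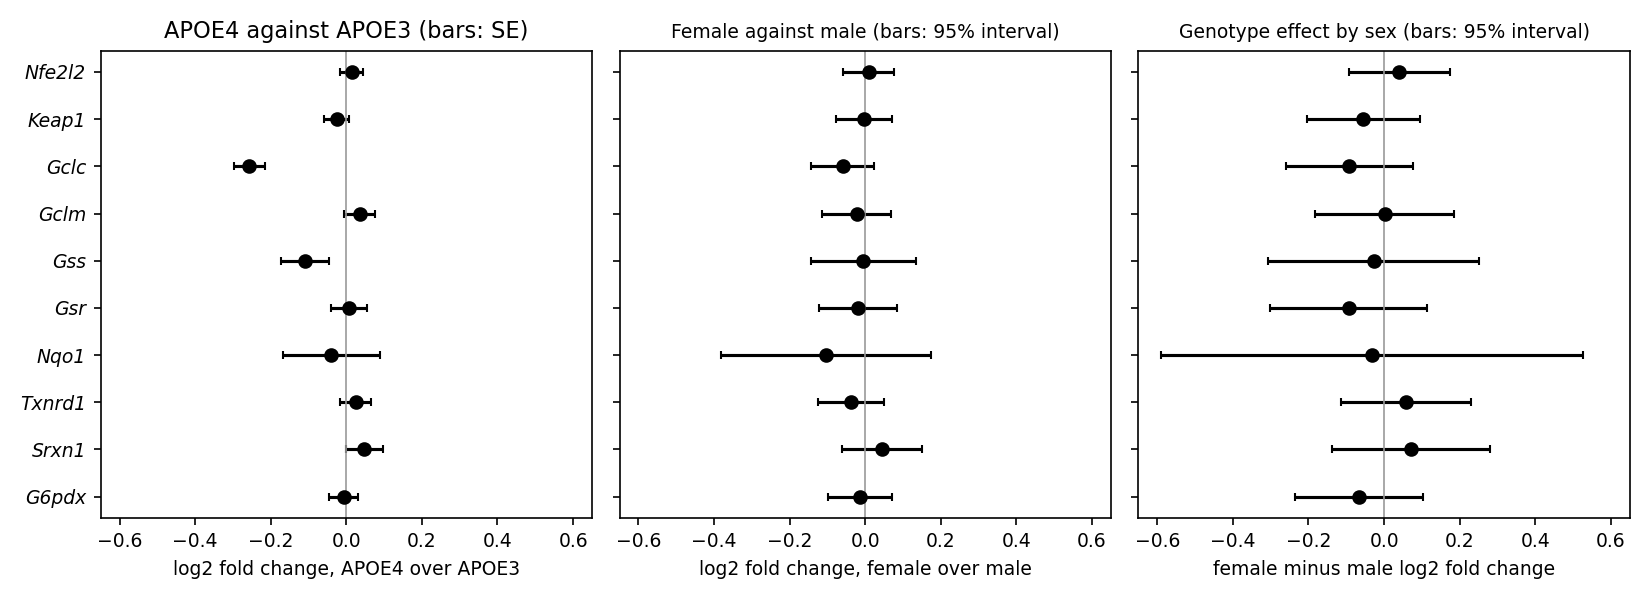
Log2 differences of each member (horizontal axes, the same scale in each panel): APOE4 over APOE3 with bars of 1 SE (left), female over male with 95% intervals (middle) and the genotype effect in females minus that in males with 95% intervals (right). Gclc at -0.26 is the value farthest from 0 on the left, and every interval in the middle and right panels spans 0.

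Sex was not used in choosing the members and was tested. No member differed between females and males averaged over genotype: 0 of 10 passed in edgeR's quasi-likelihood test, with an adjusted p of 0.9999 for each, and 0 had an unadjusted p under 0.05, where 0.0721% of the genes tested passed. DESeq2 and limma voom also called 0 members. Log2 differences ran from -0.10 for Nqo1 to 0.044 for Srxn1, and the 95% intervals of all members but Nqo1 stayed within 0.149 of 0, while that of Nqo1 ran from -0.38 to 0.17. G6pdx, although on the X chromosome, had a log2 difference of -0.014 with an interval of -0.099 to 0.071.

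The genotype effect was likewise compared between the sexes. No member passed the interaction test, with adjusted p-values of 0.9999 and 0 of 10 at an unadjusted p under 0.05 by edgeR, and none did by DESeq2 or limma voom. Among all genes 0% passed, with 345 at an unadjusted p under 0.05. For Gclc the effect in females minus that in males was -0.092 on the log2 scale, with a 95% interval of -0.26 to 0.075. Intervals that reach a difference as large as the genotype effect of Gclc were those of Gclc itself, Gss (-0.31 to 0.25), Gsr (-0.30 to 0.11), Srxn1 (-0.14 to 0.28) and Nqo1 (-0.59 to 0.53). With 4 cultures per group a difference of that size is therefore not excluded in these genes.

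The wider pathway was described with 5 lists of textbook genes, 85 genes of which 76 were tested. By edgeR's quasi-likelihood test with Benjamini-Hochberg adjustment over all genes, 14 were lower (18.4%) and 4 higher (5.26%) in APOE4 cultures, beside the 6.09% and 6.71% of all genes. The lists were written with earlier results of these libraries known, so these shares are a description. The cell cycle score moved with the genotype beside every list, and with it as a covariate 0 genes of any list were past the threshold, in the fit that called 0 of 12481 genes. The log2 differences in that fit were unequal: Blvrb stood at -0.62 ± 0.17 (SE), Hmox1 at -0.28 ± 0.071, Osgin1 at -0.29 ± 0.11 and Gstm1 at -0.18 ± 0.073, while Slc3a2 stood at -0.026 ± 0.051, Prdx4 at 0.041 ± 0.061 and H6pd at 0.090 ± 0.057. Of the other called list genes named below, Gstp1 and Ephx1 stood at -0.18 and Txnrd3 at -0.15. Nearer 0 or above it were Abcc4 at -0.090, Txnip at -0.063, Mafg at -0.054, Glrx at -0.026, Sqstm1 at -0.017, Me2 at 0.0073 and Bach1 at 0.090. The part of cell cycle in these differences was not tested.

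Of 19 tested NRF2 targets outside the members, 7 were lower in APOE4 cultures and 0 higher, and the list's median log2 fold change was -0.13. At an unadjusted p under 0.05, 1 was higher and 9 lower, and DESeq2 and limma voom each called 7 lower and 0 higher. Blvrb, which reduces biliverdin to bilirubin, had 46.0 ± 10.1 CPM (SD, n = 8) in APOE3 and 29.2 ± 4.38 CPM (SD, n = 8) in APOE4 cultures, a log2 difference of -0.66 ± 0.12 (SE, adjusted p = 0.0057). Hmox1, a heme oxygenase of heme breakdown, had 258 ± 20.0 and 224 ± 18.2 CPM, a log2 difference of -0.20 ± 0.053 (SE, adjusted p = 0.018). Osgin1, an oxidative stress induced growth inhibitor, had a log2 difference of -0.43 (adjusted p = 0.0062) and the epoxide hydrolase gene Ephx1 of -0.29 (adjusted p = 0.0080). The glutathione transferase genes Gstp1 and Gstm1, whose products conjugate glutathione to electrophiles, had log2 differences of -0.37 (adjusted p = 0.0045) and -0.23 (adjusted p = 0.012). In 8 of 8 APOE4 cultures each of these 6 genes was below the APOE3 median, and the genotypes did not overlap for Gstp1. The 6 with the largest change are named. Gclc had its difference in the same direction as these targets, whereas Gclm, Txnrd1, Srxn1 and Nqo1 did not pass in either direction.

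Of 16 tested partners and regulators of NRF2, 3 were lower and 0 higher, and the list's median log2 fold change was -0.081. None was higher at an unadjusted p under 0.05, where 7 were lower, and DESeq2 called 6 lower and limma voom 3, both with 0 higher. Mafg, a small MAF protein that binds DNA together with NRF2, had 96.5 ± 6.28 CPM (SD, n = 8) in APOE3 and 84.6 ± 5.84 CPM (SD, n = 8) in APOE4 cultures, a log2 difference of -0.19 ± 0.046 (SE, adjusted p = 0.014). Sqstm1, the p62 receptor that draws KEAP1 into autophagy, had a log2 difference of -0.14 (adjusted p = 0.032). Bach1, the repressor that competes with NRF2 for its motif, had a log2 difference of -0.29 (adjusted p = 0.048). The call of Bach1 was lost with 11 of the 16 libraries left out in turn and that of Sqstm1 with 7, with adjusted p-values over these 16 fits of 0.0090 to 0.11 and 0.011 to 0.074. With all libraries Bach1 also missed the threshold by limma voom (adjusted p = 0.052) and with sex as a covariate (adjusted p = 0.052). Bach1 kept its call without APOE3 cultures 27 or 31 or APOE4 cultures 36, 37 or 43, and Sqstm1 lost it without APOE3 cultures 25, 26, 30 or 33 or APOE4 cultures 35, 39 or 41.

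Genes around glutathione supply and use went both ways. Of 16 tested genes of precursor uptake, export and turnover, 2 were lower and 1 higher, and the list's median log2 fold change was -0.022. At an unadjusted p under 0.05, 5 were lower and 3 higher. DESeq2 called 3 lower and 2 higher, and limma voom 2 lower and 1 higher. Slc3a2, the heavy chain shared by the cystine transporter and other amino acid exchangers, had 452 ± 46.6 CPM (SD, n = 8) in APOE3 and 366 ± 43.6 CPM (SD, n = 8) in APOE4 cultures, a log2 difference of -0.30 ± 0.070 (SE, adjusted p = 0.011). Slc7a11, the chain specific to the cystine transporter, lay in the other direction and did not pass. Its log2 difference was 0.24 ± 0.095 (SE, adjusted p = 0.098). Abcc4, an ATP-driven exporter, did not overlap between genotypes, with 697 to 883 CPM in APOE3 and 484 to 669 CPM in APOE4 cultures and a log2 difference of -0.33 ± 0.068 (SE, adjusted p = 0.0080). Glrx, glutaredoxin, was higher by 0.26 (adjusted p = 0.046), a call lost with 11 of the 16 libraries left out in turn and kept without APOE3 cultures 27 or 31 or APOE4 cultures 37, 38 or 43, with adjusted p-values of 0.012 to 0.095. It also missed the threshold with sex as a covariate (adjusted p = 0.052) and without the filter on low counts (adjusted p = 0.0504).

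Of the 15 genes of NADPH supply, all tested, 2 were higher and 0 lower, and the list's median log2 fold change was 0.066. At an unadjusted p under 0.05, 1 was lower and 5 higher, and DESeq2 called 3 and limma voom 2 higher and both 0 lower. H6pd, the hexose 6-phosphate dehydrogenase of the endoplasmic reticulum, had 191 ± 20.6 CPM (SD, n = 8) in APOE3 and 242 ± 24.3 CPM (SD, n = 8) in APOE4 cultures, a log2 difference of 0.34 ± 0.066 (SE, adjusted p = 0.0064), unlike its cytosolic counterpart G6pdx at -0.0069. Me2, a mitochondrial malic enzyme that yields mainly NADH, was higher by 0.21 (adjusted p = 0.048). That call was lost with 10 of the 16 libraries left out, with adjusted p-values of 0.026 to 0.11. It was kept without APOE3 cultures 25 or 31 or APOE4 cultures 36, 37, 40 or 43. Me2 also missed the threshold with sex as a covariate (adjusted p = 0.052) and without the filter (adjusted p = 0.062). The NADP-dependent malic enzyme genes Me1 and Me3 had log2 differences of 0.14 and 0.25 and did not pass (adjusted p = 0.21 and 0.061).

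All 10 genes of the thioredoxin list were tested, of which 2 were lower and 1 higher, and the list's median log2 fold change was 0.059. Txnip, which binds and inhibits thioredoxin, had 1035 ± 93.7 CPM (SD, n = 8) in APOE3 and 853 ± 89.5 CPM (SD, n = 8) in APOE4 cultures, a log2 difference of -0.28 ± 0.064 (SE, adjusted p = 0.011). Txnrd3, a thioredoxin and glutathione reductase, had a log2 difference of -0.26 (adjusted p = 0.015), where its relative Txnrd1 stood at 0.024. Prdx4, the peroxiredoxin of the endoplasmic reticulum, had 43.9 ± 7.41 and 58.0 ± 6.98 CPM, a log2 difference of 0.40 ± 0.090 (SE, adjusted p = 0.0099), and was above the APOE3 median in 8 of 8 APOE4 cultures.

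**Figure D4:**
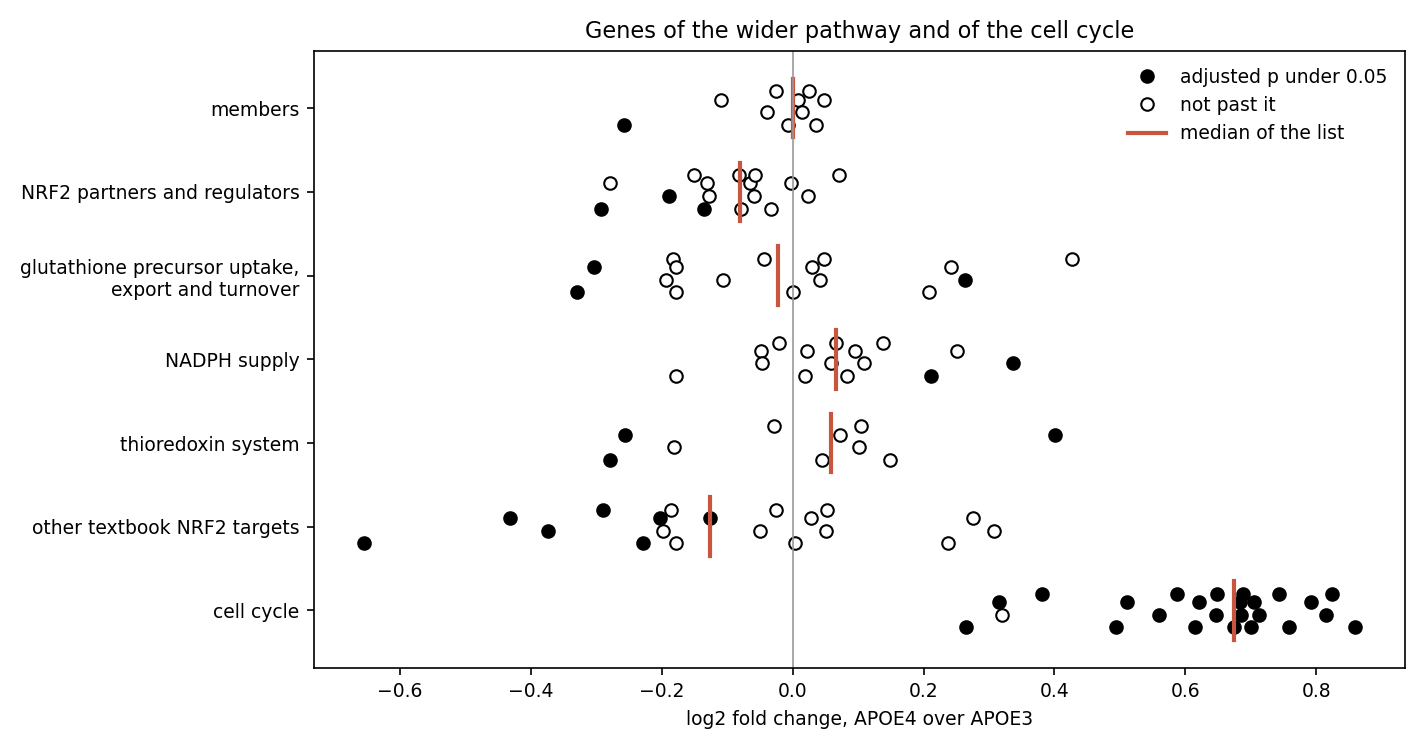
Log2 fold change APOE4 over APOE3 (horizontal axis) of each tested gene in the members, the 5 wider lists and the cell cycle list (rows, points spread vertically for legibility), with filled points past an adjusted p of 0.05, open points not past it and red lines at each list's median. Among the members Gclc at -0.26 is the filled point, the NRF2 targets have 7 filled points below 0, and the cell cycle genes have a median of 0.67.

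Whether the members vary together from culture to culture was examined over 10 relations, on log2 CPM centred on the genotype means of the 16 libraries, which the genotype contrast does not use. None passed an adjusted p of 0.05 in a permutation test with this centring. On values centred on the 4 means of genotype and sex, Nfe2l2 had r = 0.74 with G6pdx (permutation test, adjusted p = 0.012) and r = 0.63 with Txnrd1 (adjusted p = 0.045). Those values were shuffled freely over all 16 libraries although 4 means had been removed. The 2 p-values are thus too small, and no pass is read from them. Values centred on the genotype means were shuffled in the same free way, so the p-values with that centring are also somewhat too small. Nfe2l2 correlated most with G6pdx (Pearson's r = 0.63, permutation p = 0.0083, adjusted p = 0.066, and Spearman's rho = 0.53, adjusted p = 0.12) and with Txnrd1 (r = 0.61, permutation p = 0.013, adjusted p = 0.066, and rho = 0.64, adjusted p = 0.090). With Gclm it had r = 0.55 (permutation p = 0.025, adjusted p = 0.084) and rho = 0.59 (adjusted p = 0.098). Without the 2 libraries farthest from the median of Nfe2l2, APOE3 culture 25 and APOE4 culture 40, these r values were 0.64, 0.77 and 0.58. That with Txnrd1 then had an adjusted p of 0.0098 (permutation test). No pass is read from it either, since genotype means had been removed and the libraries left out were picked by their Nfe2l2 values. Within genotype r with G6pdx was 0.72 in APOE3 and 0.57 in APOE4 cultures, with Txnrd1 0.73 and 0.51, and with Gclm 0.47 and 0.61. In males and females it was 0.64 and 0.67 with G6pdx, 0.88 and 0.37 with Txnrd1, and 0.16 and 0.83 with Gclm.

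The ligase subunits showed no correlation past the threshold. Gclc and Gclm had r = -0.37 (permutation p = 0.16, adjusted p = 0.25) and rho = -0.37 (adjusted p = 0.32), with r of -0.72 in APOE3 and -0.13 in APOE4 cultures, 0.097 in males and -0.69 in females, and -0.30 without APOE3 culture 25 and APOE4 culture 40. Nfe2l2 and Gclc had r = -0.36 (permutation p = 0.17, adjusted p = 0.25) and rho = -0.27 (adjusted p = 0.39), with r of -0.33 without the same cultures. Its r was 0.34 in males and -0.83 in females, a difference that was not tested. Nfe2l2 and Keap1 had r = 0.030 (permutation p = 0.91) and rho = 0.0059. The r of Nfe2l2 with Gss, Gsr, Nqo1 and Srxn1 was 0.33, 0.085, 0.35 and 0.39, with adjusted p-values of 0.25 to 0.84 in the permutation test. Over all 45 pairs of members, given as a description, r was above 0 in 36, with a median of 0.25, and ran from -0.45 for Gclc with Srxn1 to 0.72 for Gclm with Nqo1. The points share libraries and their scaling, which can move genes together.

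**Figure D5:**
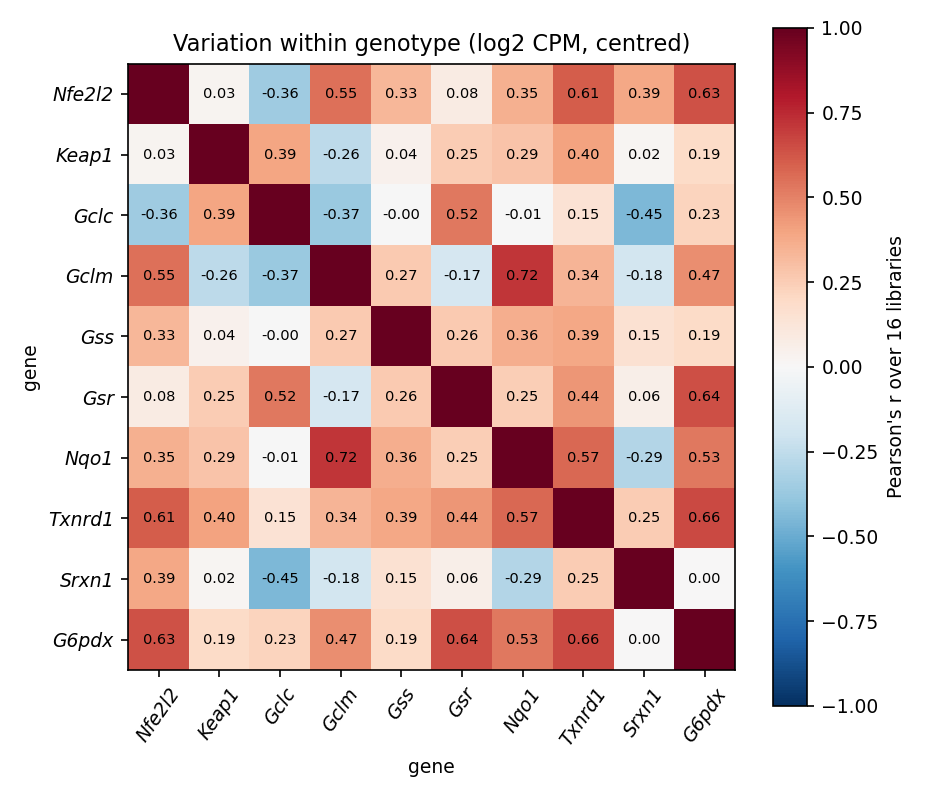
Pearson's r between the members over 16 libraries, on log2 CPM centred on each genotype's mean, with red for positive and blue for negative values. Gclc is blue against Nfe2l2, Gclm and Srxn1, at -0.36, -0.37 and -0.45. It is red against Gsr, Keap1, G6pdx and Txnrd1, at 0.52, 0.39, 0.23 and 0.15, and near 0 against Gss and Nqo1. G6pdx, Txnrd1 and Nfe2l2 are red against each other, at 0.61 to 0.66.

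For each member, the tested genes most like it in this variation over 16 libraries are given by r, as a description. For Gclc these were Bpnt1 (0.83), Klhl21 (0.80) and D430018E03Rik (0.80), and for Gclm Kank4 (0.96), M6pr (0.93) and Ddah1 (0.92). Nfe2l2 was most like Myl6 (0.93), Tmem14c (0.87) and Cstb (0.86), and Keap1 most like Gm15506 (0.76), Ppp2r2d (0.75) and Kctd17 (0.73). Gss had Lars (0.89), Elavl1 (0.86) and Polr3g (0.82), and Gsr had Trmt112 (0.82), Crlf3 (0.80) and 2410015M20Rik (0.80). Nqo1 had Plvap (0.93), Tmem214 (0.90) and Hnrnpl (0.89), and Txnrd1 had Rars (0.93), Hmgn1 (0.91) and Parp1 (0.90). Srxn1 had Slc37a3 (0.86), Pcp4l1 (0.84) and B2m (0.84), and G6pdx had Atp5a1 (0.93), Cct2 (0.89) and Phlda3 (0.88). No member was among the 3 genes most like another member.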

How the data were processed

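Poly-A RNA of 16 cultures (8 APOE3, 8 APOE4) was sequenced as paired reads of 50 bases from strand-selected libraries made with 100 ng of RNA and 17 PCR cycles. The authors deposited raw counts of reads per gene, whole numbers without normalization; the submitters' processing notes name STAR, featureCounts, mm10 and hg38, and the versions, annotation release and strand setting are not given in the sources used here. Gene names came from GENCODE vM21, which matched 38872 of 39056 mouse identifiers. The table holds 12717847 to 18624417 counts per library, which limits precision by counting error, and PCR copies without molecular identifiers are not independent molecules. No 2 libraries held identical values.

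Differences were fitted with edgeR 4.0.16 in R 4.3.3 (filterByExpr by genotype, TMM, quasi-likelihood test, genotype alone; 4 groups of genotype and sex for sex and interaction), with Benjamini-Hochberg adjustment over 12481 genes and a threshold of 0.05. CPM are TMM-scaled, and level per length divides by exon union. Correlations used log2 CPM with a prior count of 2 and two-sided permutation tests of 100000 resamples, adjusted over 10 relations. Scripts were tested on simulated data. The cultures are from separate animals, and batches are not given in the labels. The members and gene lists were chosen with earlier results of these data known. Named genes are the 10 members, up to 6 called genes of each list by size of change, and the 3 genes most like each member. Slc7a11, Me1 and Me3, not called, are named beside called genes of related function. Alternatives were DESeq2 1.42.0 size factors and Wald test, limma 3.58.1 voom, no filter, sex or cell cycle score as a covariate, and each library left out.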

Additional observations from a re-analysis of the deposited data

How the results depend on the processing

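The count of members past the threshold between genotypes stayed at 1 of 10 with DESeq2 size factors, no filter on low counts, sex as a covariate, DESeq2's Wald test, limma voom and each library left out, and went to 0 once the cell cycle score was a covariate. That covariate, in which 0 of 12481 genes passed by edgeR and 873 had an unadjusted p under 0.05, moved the log2 fold changes of Gclc to -0.21, Nqo1 to -0.40, Nfe2l2 to -0.053, Gclm to -0.089, Txnrd1 to -0.087 and G6pdx to -0.092, turned Bach1 to 0.090 and Glrx to -0.026, put Blvrb at -0.62 and Hmox1 at -0.28, and left 0 genes called lower or higher in every wider list; the cause was not tested, since score and genotype move together. With each library left out, 0 members passed for sex or for the interaction in any fit.

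Among the lists, DESeq2's Wald test called 6 partners and regulators lower, 2 genes of glutathione uptake and turnover higher and 2 of the thioredoxin list higher. Without a filter, and with sex as a covariate, 0 genes of glutathione uptake and turnover and 1 of NADPH supply were higher. With each library left out, 1 to 6 partners and regulators were lower, 2 to 4 genes of glutathione uptake and turnover lower and 0 to 1 higher, 1 to 4 of NADPH supply higher, 2 of the thioredoxin list lower and 1 to 2 higher, and 6 to 7 NRF2 targets lower and 0 to 1 higher. No paired analysis was possible because the labels give no pairing of cultures between the groups.

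Centred on the 4 means of genotype and sex, Nfe2l2 correlated with G6pdx at r = 0.74 (permutation test, adjusted p = 0.012) and with Txnrd1 at r = 0.63 (adjusted p = 0.045). These p-values are too small, since values were shuffled across the 4 groups after their means had been removed, and no pass is read from them. Centred on the genotype means and without the 2 farthest libraries, Nfe2l2 correlated with Txnrd1 at r = 0.77 (permutation test, adjusted p = 0.0098). No pass is read from this value either, since means had been removed and the libraries were picked by Nfe2l2. DESeq2 size factors and a prior count of 0.5 changed no call of a correlation. Nqo1, with 93 to 194 counts, is the member for which depth limits precision most.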
